A study of Mus musculus with 8 samples.

Results

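The apical-basal polarity machinery was examined through 10 genes, *Crb3* and *Mpp5* of the Crumbs complex, *Pard3*, *Pard6a*, *Pard6b*, *Prkci* and *Prkcz* of the Par complex, and *Llgl1*, *Llgl2* and *Scrib* of the Scribble complex. They were taken by gene symbol from the 24341 genes of the deposited expression table, and all 10 were present and passed the filter that left 13777 genes to test. RNA came from pancreas buds of mouse embryos at E11.0, 5 of them WT and 3 Lats1/2-null (genotype Pdx1Creearly;Lats1f/f;Lats2f/f, called *Lats1/2* PanKO in the study), with the strain of both groups given as CD1. Each bud was a library of its own. In the Lats1/2-null buds Cre recombinase under the *Pdx1* promoter acts in pancreatic progenitors and their descendants, so other cells of the bud keep both kinase genes. The study's methods describe its controls in general as WT or heterozygous littermates, while the labels of these 5 buds say WT. Mesenchyme was pulled off by hand before RNA isolation.

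In an epithelial cell, 3 protein complexes divide the plasma membrane into domains. The Crumbs complex and the Par complex sit at and just below the apical surface, where atypical protein kinase C is the active enzyme, and the Scribble complex marks the lateral membrane. Each side keeps the other out, in part because atypical protein kinase C phosphorylates LGL proteins and so removes them from the apical membrane. In the pancreatic bud this polarity accompanies the opening of microlumens that later join into ducts, and the Hippo kinases take input from the same membrane domains.

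Levels are in FPKM, the authors' fragment counts divided by transcript length and by library size, so that levels can be compared between genes. Genotypes were compared with limma on log2(FPKM + 1), with p-values adjusted over all 13777 genes and a threshold of 0.05. Because 1 FPKM is added, differences of genes at low levels come out too small on this scale. Single genes were also given an exact two-sided permutation test over the 56 ways to assign 8 libraries to groups of 5 and 3, whose smallest possible p is 0.0179. An FPKM table carries no read counts, and depth could only be estimated from the steps that whole fragments leave among low values. Of 393 single-exon genes, 15 to 22 in a library lay on such steps, a thin base, and by them 1 fragment over a kilobase was worth between 0.0989 and 0.105 FPKM except in the shallowest library, WT replicate 5, at 0.133 FPKM.

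*Lats1* averaged 15.6 FPKM in WT and 12.1 FPKM in Lats1/2-null buds and *Lats2* 13.8 and 12.3 FPKM over the whole gene, and neither was called. All 17 epithelial markers were higher in Lats1/2-null buds at an unadjusted limma p under 0.05, where 6.29% of all tested genes were higher. None of these markers was called after adjustment. Their summed level was 244 to 315 FPKM in WT buds and 559, 484 and 1173 FPKM in the 3 Lats1/2-null buds, so that Lats1/2-null replicate 3 stood apart. Summed pancreatic progenitor markers, 8 genes, showed the same order, with 84.0 to 115 FPKM in WT and 175, 129 and 315 FPKM in Lats1/2-null buds. The 16 mesenchymal markers summed to 1162 to 1304 FPKM in WT and to 1020, 1187 and 911 FPKM in Lats1/2-null buds, and the 11 endothelial markers to 122 to 207 and to 134, 127 and 87.6 FPKM. Of the 15 mesenchymal markers tested, 13 had a negative log2 difference, 4 of them at an unadjusted limma p under 0.05. The other 2 were higher, 1 of them at that p. All 11 endothelial markers were lower, 3 of them at that p, where 4.99% of all tested genes were lower. None of either list was called. The 2 most abundant mesenchymal markers went different ways. *Vim* was at 361 to 481 FPKM in WT and at 493.1, 464 and 602 FPKM in Lats1/2-null buds, and *Barx1* was at 173 to 500 FPKM and at 183, 302 and 115 FPKM. Liver markers also stood high in Lats1/2-null replicate 3. They summed to 108 to 192 FPKM in WT and to 194, 155 and 454 FPKM in Lats1/2-null buds. All 9 that were tested were higher in Lats1/2-null buds, 2 of them at an unadjusted limma p under 0.05, where 6.29% of all tested genes were higher. *Ttr* reached 318 FPKM and *Afp* 89.5 FPKM in replicate 3, against WT maxima of 142 and 27.8 FPKM. The study lists *Afp* among known targets of TEAD factors, the partners of YAP1 and TAZ, so its level need not stand for liver cells. The part of these cell types in the differences below was not tested. In such bulk samples, fewer cells of a type and less RNA per cell cannot be told apart.

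**Figure D1:**
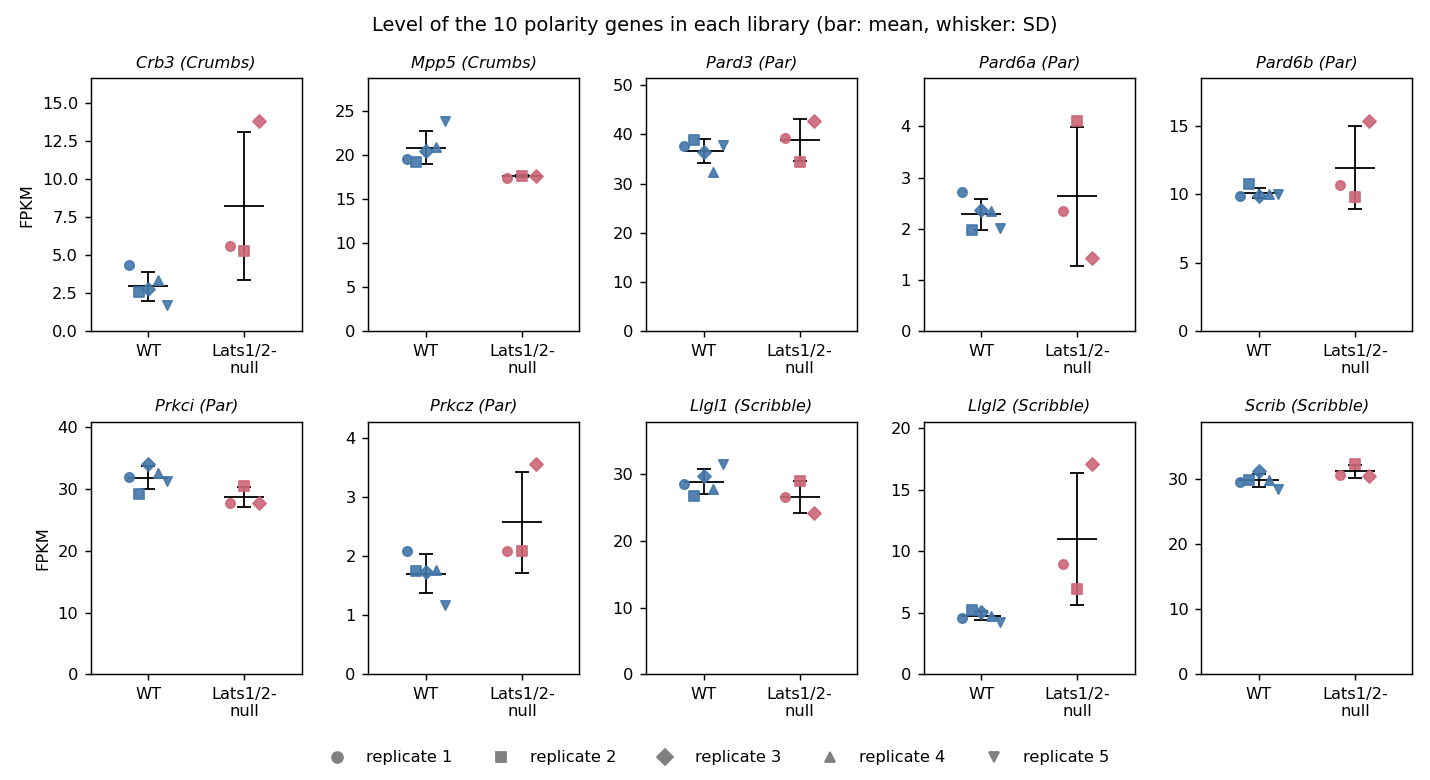
FPKM (vertical axis, linear from 0) of each polarity gene in 5 WT and 3 Lats1/2-null libraries, 1 symbol per library, with the mean as a bar and the SD as whiskers. *Crb3* and *Llgl2* lie above every WT library in all 3 Lats1/2-null libraries, with replicate 3 highest at 13.9 and 17.1 FPKM, *Mpp5* lies below, and the other 7 overlap.

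None of the 10 genes was called at an adjusted p under 0.05, a threshold that 0.0145% of all tested genes passed. At an unadjusted limma p under 0.05, *Crb3* and *Llgl2* were higher in Lats1/2-null buds (2 of 10, where 6.29% of all tested genes were higher at that p) and *Mpp5* was lower (1 of 10, where 4.99% of all were lower). In the same 2 genes all 3 Lats1/2-null values lay above all 5 WT values, as they did in 4.46% of all tested genes, and in *Mpp5* all 3 lay below, as in 3.06%. The other 7 genes overlapped between genotypes. The median log2 fold change of the 10 genes was 0.08, against -0.01 for all tested genes, and 6 of the 10 differed by less than 0.2 on the log2 scale.

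The order of levels was similar in both genotypes. *Pard3*, *Prkci*, *Scrib* and *Llgl1* formed the upper end in WT buds, with means of 36.6, 31.8, 29.8 and 28.8 FPKM, and each neighbouring pair in that order had overlapping ranges. *Mpp5* came next at 20.8 FPKM, then *Pard6b* at 10.1 FPKM and *Llgl2* at 4.78 FPKM, and in all 5 WT libraries each of these steps down was kept without overlap. *Crb3* at 2.96 FPKM, *Pard6a* at 2.28 FPKM and *Prkcz* at 1.70 FPKM formed the lower end, and from *Llgl2* down the ranges of neighbours overlapped. In Lats1/2-null buds the ranking by mean was the same except that *Scrib* stood above *Prkci*, in all 3 libraries, while *Prkci* stood above *Scrib* in 4 of 5 WT libraries. *Llgl2* exceeded *Pard6b* in 1 of 3 Lats1/2-null libraries, replicate 3, and in none of the WT libraries.

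LATS kinases restrain YAP1 and TAZ, which act with TEAD factors, so the promoters were searched for the TEAD core motif, GGAATG on either strand. RefSeq promoter windows of GRCm38.p6, from 250 bases before to 50 bases after an annotated start, were at hand for 7 of the 10 genes, 12 windows in all. *Llgl2*, *Mpp5* and *Scrib* had no window and were not searched. The motif was in 2 of the 12, and it is in 14.7% of all 32851 windows of that length. Both are printed 5′ to 3′ on the plus strand with the motif in capitals, since 1 belongs to a gene that was higher in Lats1/2-null buds and the other to a gene that was not. The *Crb3* window is chr17:57061951-57062250, with the motif starting at position -243 from the start site, and a second *Crb3* window that begins further downstream leaves it out. The *Prkci* window is chr3:30995521-30995820, with the motif starting at position -44.
Crb3: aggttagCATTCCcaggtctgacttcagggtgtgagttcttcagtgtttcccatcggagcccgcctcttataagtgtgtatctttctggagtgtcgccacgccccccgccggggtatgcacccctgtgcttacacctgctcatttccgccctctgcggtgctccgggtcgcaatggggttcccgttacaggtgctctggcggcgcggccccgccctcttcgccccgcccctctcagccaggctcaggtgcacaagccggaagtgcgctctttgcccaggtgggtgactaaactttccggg
Prkci: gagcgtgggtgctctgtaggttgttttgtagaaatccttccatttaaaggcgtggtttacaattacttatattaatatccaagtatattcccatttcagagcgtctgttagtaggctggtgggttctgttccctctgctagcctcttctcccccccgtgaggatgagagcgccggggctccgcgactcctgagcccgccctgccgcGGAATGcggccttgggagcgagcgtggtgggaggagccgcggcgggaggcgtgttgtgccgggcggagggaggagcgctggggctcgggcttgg

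*Crb3* encodes the small transmembrane Crumbs protein of mammalian epithelia and is located at 57062277 to 57065914 on chromosome 17 (GRCm38). It was measured at 4.34, 2.56, 2.79, 3.35 and 1.74 FPKM in WT replicates 1 to 5 and 5.58, 5.30 and 13.9 FPKM in Lats1/2-null replicates 1 to 3. Every Lats1/2-null bud was above every WT bud, but replicates 1 and 2 were close to the highest WT bud and replicate 3 was far above. The means were 2.96 ± 0.967 FPKM (SD, n = 5) and 8.25 ± 4.86 FPKM (SD, n = 3), a ratio of 2.79, and the ratio was 1.84 without Lats1/2-null replicate 3. On the log2 scale the difference was 1.14 (standard error 0.31, adjusted p = 0.247 from limma), with a 95% confidence interval of 0.44 to 1.84 and an exact permutation p of 0.0179. Without Lats1/2-null replicate 3 it was 0.74. *Crb3* is short, and even if all its RNA were the longest coding transcript of GENCODE M21, 1206 bases, the 1.74 FPKM of WT replicate 5 would stand for an estimated 15.8 fragments, where counting error is large. Its exons share 14 bases with *Dennd1c* on the opposite strand, and the libraries were stranded.

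*Mpp5*, which encodes PALS1, the adaptor that joins Crumbs to PATJ, lies on chromosome 12 from 78748947 to 78840713. It was measured at 19.5, 19.3, 20.5, 20.9 and 23.9 FPKM in WT buds and at 17.4, 17.7 and 17.6 FPKM in Lats1/2-null buds. The 3 Lats1/2-null values were nearly equal and all below the lowest WT value, by a small margin. The means were 20.8 ± 1.85 FPKM (SD, n = 5) and 17.6 ± 0.129 FPKM (SD, n = 3), a log2 difference of -0.23 (standard error 0.08, adjusted p = 0.330 from limma, 95% confidence interval -0.41 to -0.05, exact permutation p = 0.0357). It was -0.23 without Lats1/2-null replicate 3 and between -0.25 and -0.18 as each library was left out, so that, unlike *Crb3*, its size did not rest on that library. The RNA levels of *Mpp5* and *Crb3* had differences of opposite sign in the same buds, though neither gene was called.

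*Llgl2* encodes a mammalian LGL protein of epithelia and lies on chromosome 11 from 115824058 to 115855780. Its level was 4.58, 5.23, 5.06, 4.79 and 4.24 FPKM in WT buds, a narrow range, and 9.01, 6.97 and 17.1 FPKM in Lats1/2-null buds. The groups did not overlap, and replicate 3 was again the highest. The means were 4.78 ± 0.393 FPKM (SD, n = 5) and 11.03 ± 5.37 FPKM (SD, n = 3), a ratio of 2.31, or 1.67 without Lats1/2-null replicate 3. The log2 difference of 0.97 (standard error 0.23, adjusted p = 0.196 from limma, 95% confidence interval 0.45 to 1.49, exact permutation p = 0.0179) had the smallest p of the 10 genes and ranked 147 of all tested genes. It was 0.63 without Lats1/2-null replicate 3 and 1.22 without Lats1/2-null replicate 2. With limma's array weights, which give less weight to libraries that scatter more, *Llgl2* was called, with a log2 difference of 0.81 (adjusted p = 0.0433 from limma), where 1.26% of all tested genes were. Over the 15 alternatives other than the replicate block and the scaling to epithelial markers, its adjusted p ran from 0.0433 to 0.377. The tested genes whose log2 levels over the 8 libraries were most like those of *Llgl2* were *Shtn1*, *Epn3* and *Usp43* (Pearson's r = 0.993, 0.992 and 0.992), as a description in which replicate 3 weighs heavily, since 446 genes had an r above 0.9.

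Its paralog *Llgl1*, also an LGL protein, lies on the same chromosome, from 60699690 to 60727263 in the authors' table, a span that runs on over the neighbouring *Flii* on the opposite strand. It was at 26.7 to 31.5 FPKM in WT buds (median 28.4) and at 26.6, 28.9 and 24.2 FPKM in Lats1/2-null buds, with overlapping groups and a log2 difference of -0.11 (95% confidence interval -0.29 to 0.06). *Scrib*, the scaffold that gives the complex its name, was the steadiest of the 10, with 28.5 to 31.2 FPKM in WT buds and 30.7, 32.3 and 30.5 FPKM in Lats1/2-null buds. Its log2 difference was 0.06 with a 95% confidence interval of -0.06 to 0.19, so a difference of the size seen in *Llgl2* lay outside the interval.

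The Par complex held no gene whose groups separated. *Pard3*, the multi-domain scaffold that recruits the complex to junctions, was at 32.4 to 38.8 FPKM in WT buds and at 39.3, 34.3 and 42.8 FPKM in Lats1/2-null buds, a log2 difference of 0.08 (95% confidence interval -0.11 to 0.27). *Pard6b*, 1 of the adaptors that link atypical protein kinase C to CDC42, was at 9.82, 10.7, 9.82, 10.02 and 9.98 FPKM in WT buds and at 10.6, 9.77 and 15.4 FPKM in Lats1/2-null buds. Here replicate 3 alone stood outside the WT range, and the log2 difference of 0.20 (adjusted p = 0.621 from limma) was 0.02 without it. *Pard6a*, a paralog of the same function, was at 2.71, 1.98, 2.36, 2.34 and 2.01 FPKM in WT buds and at 2.36, 4.11 and 1.43 FPKM in Lats1/2-null buds. The highest and the lowest value of *Pard6a* were both Lats1/2-null, and its log2 difference of 0.09 (adjusted p = 0.916 from limma) became -0.20 without Lats1/2-null replicate 2. The most abundant of the PAR6 adaptors, *Pard6g*, is not among the 10 genes and is named here after its values were seen. It was at 12.9 to 14.1 FPKM in WT buds and at 12.7, 13.6 and 10.7 FPKM in Lats1/2-null buds, with overlapping groups and a log2 difference of -0.12 (95% confidence interval -0.32 to 0.08).

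The kinases of the Par complex are *Prkci* and *Prkcz*, which encode the iota and zeta forms of atypical protein kinase C. *Prkci* was measured at 31.9, 29.1, 34.0, 32.6 and 31.3 FPKM in WT buds and at 27.6, 30.5 and 27.7 FPKM in Lats1/2-null buds. All but Lats1/2-null replicate 2 lay below the WT range, and the log2 difference was -0.15 (standard error 0.07), with an adjusted limma p of 0.475 and an exact permutation p of 0.0714. *Prkcz* was at 2.09, 1.75, 1.74, 1.77 and 1.18 FPKM in WT buds and at 2.09, 2.08 and 3.56 FPKM in Lats1/2-null buds. WT replicate 1 reached the level of the lower Lats1/2-null buds, and the log2 difference was 0.39 (standard error 0.18, adjusted p = 0.469 from limma, 95% confidence interval -0.02 to 0.79, exact permutation p = 0.0357), or 0.20 without Lats1/2-null replicate 3.

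Paralogs that can fill the same place in a complex were then compared within each library, where differences in scaling cancel. Differences in the mix of cell types do not cancel, and their part in these ratios was not tested. The log2 ratio was taken after adding 0.1 FPKM to each gene, for 3 pairs. *Llgl2* made up 13.9%, 16.4%, 14.6%, 14.7% and 11.9% of the summed LGL level in WT buds and 25.3%, 19.4% and 41.5% in Lats1/2-null buds. The groups did not overlap, and the log2 ratio of *Llgl2* to *Llgl1* was -2.57 ± 0.195 (SD, n = 5) against -1.36 ± 0.789 (SD, n = 3), a difference of 1.21 (exact permutation p = 0.0179, Benjamini-Hochberg p = 0.0268 over the 3 ratios). It was 0.77 without Lats1/2-null replicate 3. *Llgl2* alone already separated the groups, so this ratio is not an independent result. The pairs were also chosen with earlier results of these data known. How often the ratios of other gene pairs separate the groups was not tested. *Prkcz* made up 6.14%, 5.68%, 4.86%, 5.14% and 3.63% of the summed atypical protein kinase C level in WT buds and 7.02%, 6.38% and 11.4% in Lats1/2-null buds, so *Prkci* was the more abundant in every bud. The log2 ratio of *Prkci* to *Prkcz* differed by -0.70, from 4.16 ± 0.287 (SD, n = 5) to 3.47 ± 0.476 (SD, n = 3), again without overlap (exact permutation p = 0.0179, Benjamini-Hochberg p = 0.0268). This difference was -0.42 without Lats1/2-null replicate 3 (exact permutation p = 0.143) and -0.74 without WT replicate 2 (exact permutation p = 0.0571). *Pard6a* made up 15.5% to 21.6% of its sum with *Pard6b*, which leaves out the more abundant *Pard6g*, in WT buds and 18.2%, 29.6% and 8.51% in Lats1/2-null buds, and the balance of these differed by 0.13 on the log2 scale (exact permutation p = 0.768). Without Lats1/2-null replicate 3 that difference was -0.43, so its sign rested on 1 bud. The summed levels were 33.6 ± 1.596 (SD, n = 5) and 37.6 ± 3.20 FPKM (SD, n = 3) for the LGL pair and 33.5 ± 1.89 and 31.2 ± 1.43 FPKM for the kinases.

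**Figure D2:**
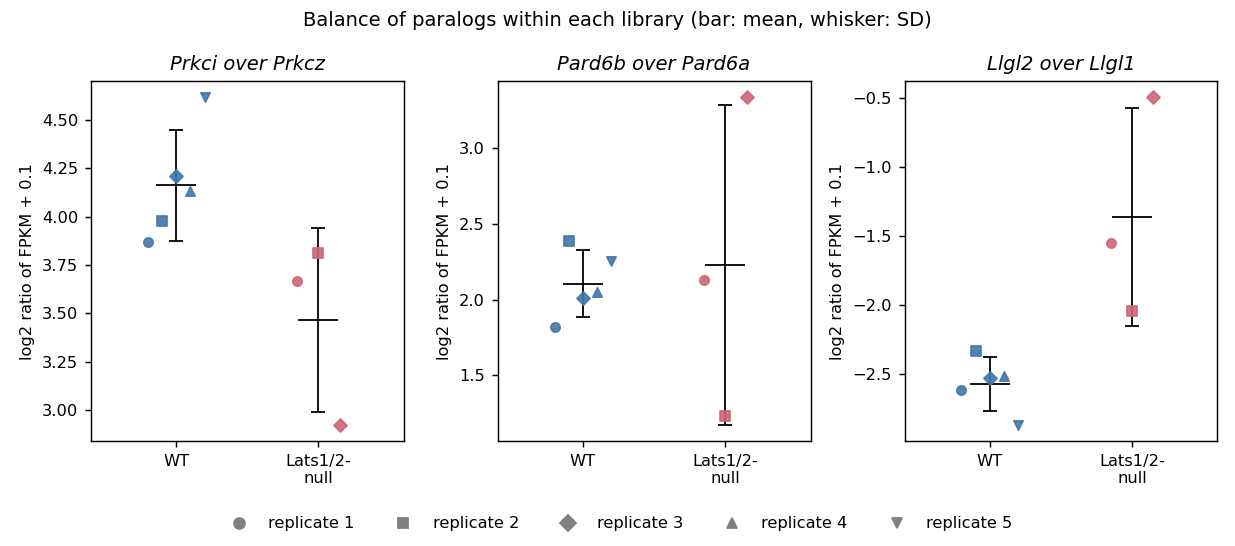
Log2 ratio of FPKM + 0.1 (vertical axis) of 3 paralog pairs within each of 5 WT and 3 Lats1/2-null libraries, 1 symbol per library, with the mean as a bar and the SD as whiskers. The Lats1/2-null libraries lie below all WT libraries for *Prkci* over *Prkcz* and above them for *Llgl2* over *Llgl1*, and they overlap for *Pard6b* over *Pard6a*.

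The Lats1/2-null buds in which *Crb3* and *Llgl2* were high were also those in which epithelial markers were high. The part of epithelial content in these levels was not tested. *Cdh1*, which encodes E-cadherin, and *Epcam* were at 21.1 to 31.2 FPKM and 31.4 to 46.9 FPKM in WT buds. They were at 46.2, 35.4 and 94.9 FPKM and at 64.1, 55.965 and 137 FPKM in the 3 Lats1/2-null buds, in the same order of libraries as *Llgl2* and *Crb3*. The ratio of Lats1/2-null to WT means was 2.33 for *Cdh1* and 2.24 for *Epcam*, beside 2.79 for *Crb3* and 2.31 for *Llgl2*, and without Lats1/2-null replicate 3 the 4 ratios were 1.62, 1.57, 1.84 and 1.67. When each library was set relative to its mean log2(FPKM + 1) of *Cdh1* and *Epcam*, *Crb3* differed by 0.08 (95% confidence interval -0.64 to 0.79, adjusted p = 0.831 from limma) and *Llgl2* by -0.09 (95% confidence interval -0.79 to 0.61, adjusted p = 0.802 from limma). In this fit limma draws each variance toward that of all genes, which share the scatter of *Cdh1* and *Epcam*. The intervals are therefore wider than the scatter of either gene alone would give. The relative level of *Llgl2* had an SD of 0.182 in WT and 0.101 in Lats1/2-null buds, against a standard error of 0.350 from limma. The exact permutation p was 0.732 for *Crb3* and 0.429 for *Llgl2*. Across the 3 Lats1/2-null buds the relative level of *Crb3* ran from -3.08 to -2.85 and that of *Llgl2* from -2.66 to -2.47, spans of 0.22 and 0.19, where the unscaled log2 levels spanned 1.24 and 1.19. *Cdh1* and *Epcam* were themselves higher in Lats1/2-null buds, with log2 differences of 1.08 and 1.04. A relative difference near 0 therefore says only that a gene moved with them. This scaling moved the median of all tested genes to -1.07 and called 90.4% of them, so the 7 polarity genes it called lower are given only against that median. The scaling shifts every gene of a library by the same amount. Differences from that median are therefore the unscaled differences less the unscaled median of -0.01, and they add no result. They were 1.15 for *Crb3*, 0.98 for *Llgl2*, 0.40 for *Prkcz* and -0.22 for *Mpp5*, and the other 6 lay between -0.13 and 0.21.

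**Figure D3:**
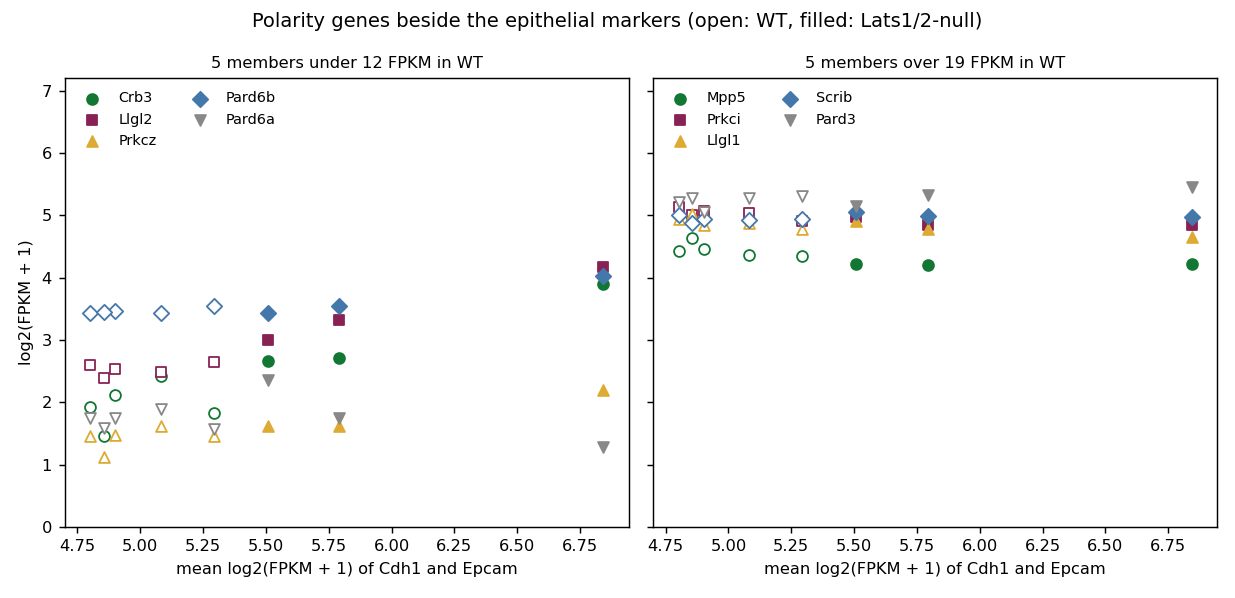
Log2(FPKM + 1) of the polarity genes (vertical axis) against the mean log2(FPKM + 1) of *Cdh1* and *Epcam* in the same library (horizontal axis), with open symbols for 5 WT and filled symbols for 3 Lats1/2-null libraries. *Crb3*, *Llgl2*, *Prkcz*, *Pard6b* and *Pard3* are highest in the library farthest to the right, Lats1/2-null replicate 3, where *Pard6a* and *Llgl1* are lowest. *Mpp5*, *Prkci*, *Llgl1*, *Scrib* and *Pard3* stay within narrow bands.

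A further 30 genes of the same pathway were examined, paralogs, partners and regulators, of which 27 were tested and *Crb1*, *Lin7b* and *Dlg2* were below the filter. Of the 27, none was called, 2 were higher and 1 was lower at an unadjusted limma p under 0.05, and the median log2 difference was 0.01. These counts are near the shares of all tested genes at that p, 6.29% higher and 4.99% lower, so the genes named next are a description of single members and not a result about the list. *Inadl*, which encodes PATJ, the PDZ protein that binds PALS1, was at 8.31 to 10.4 FPKM in WT buds and at 16.3, 11.4 and 26.4 FPKM in Lats1/2-null buds. Its log2 difference was 0.73 (adjusted p = 0.279 from limma), 0.43 without Lats1/2-null replicate 3, and the 3 Lats1/2-null libraries, but not the WT libraries, ran in the same order as for *Llgl2*. *Crb2*, a further Crumbs protein, was at 10.7, 9.31, 10.5, 9.36 and 12.8 FPKM in WT buds and at 6.75, 8.16 and 2.56 FPKM in Lats1/2-null buds. It differed by -0.86 (adjusted p = 0.306 from limma), or -0.45 without Lats1/2-null replicate 3, and in replicate 3, where *Crb3* was highest, it was lowest. *Crb2* exceeded *Crb3* in all 5 WT buds and in Lats1/2-null replicates 1 and 2, and *Crb3* exceeded *Crb2* in replicate 3. *Tiam1*, a guanine nucleotide exchange factor for RAC1 that binds PAR3, was at 14.5 to 17.4 FPKM in WT and 19.4, 18.4 and 25.9 FPKM in Lats1/2-null buds, a log2 difference of 0.42 (adjusted p = 0.263 from limma). *Cab39*, a partner of the kinase LKB1, and *Lin7a*, of the Crumbs-associated LIN7 family, had the next smallest p, with log2 differences of 0.11 and -0.21. Among the other 22, *Cdc42*, the small GTPase that activates the Par complex, differed by 0.02 (95% confidence interval -0.10 to 0.15) and *Dlg1*, the Discs large partner of SCRIB, by -0.08 (95% confidence interval -0.27 to 0.10).

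**Figure D4:**
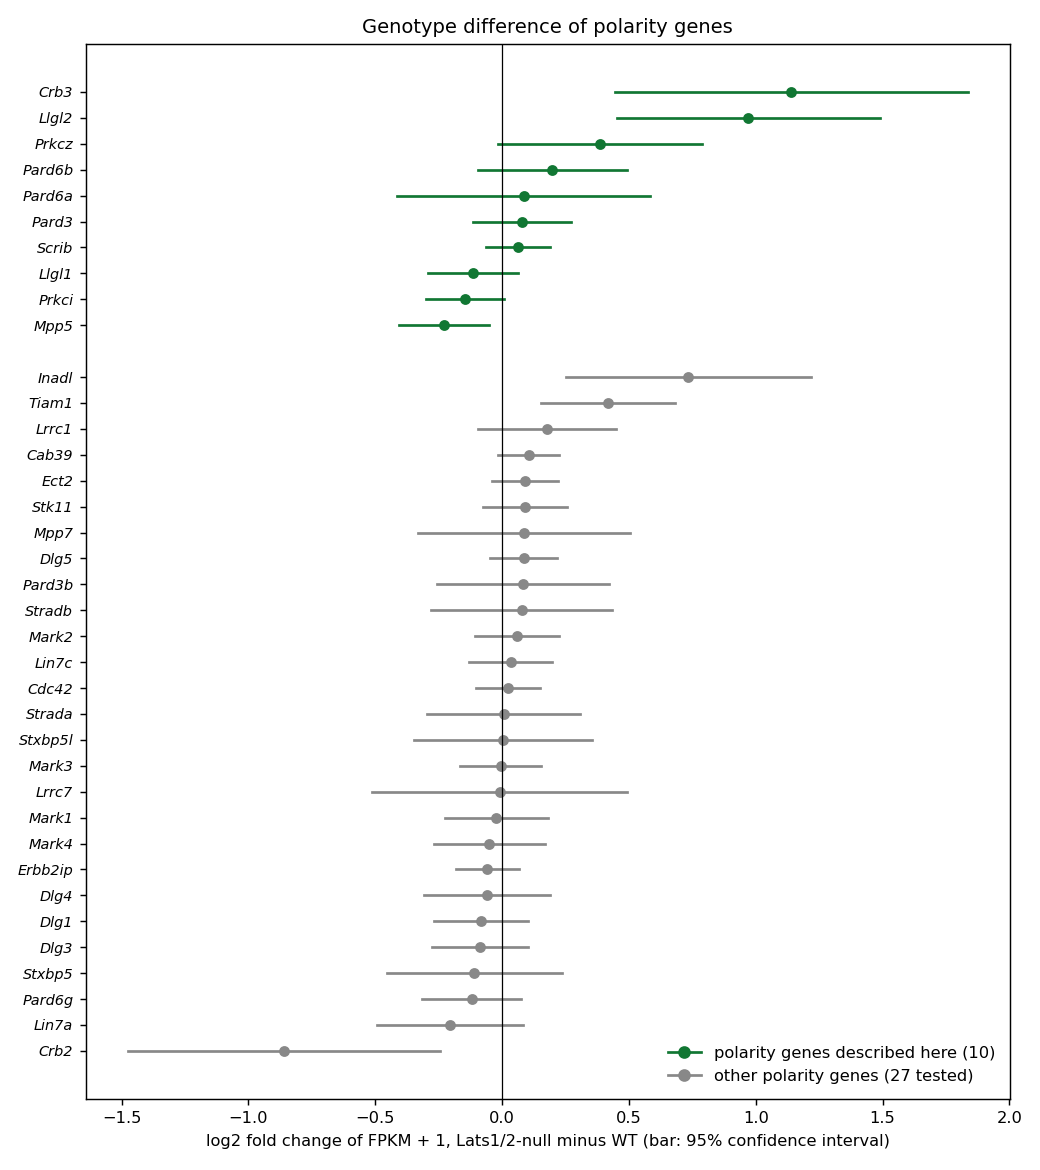
Log2 fold change of FPKM + 1 between Lats1/2-null and WT libraries (horizontal axis) for the 10 polarity genes and 27 other tested genes of the pathway, with 95% confidence intervals from limma as bars. The intervals of *Crb3*, *Llgl2*, *Inadl* and *Tiam1* lie above 0, those of *Mpp5* and *Crb2* below 0, and the others include 0.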

How the data were processed

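Total RNA of 8 mouse pancreas buds was depleted of ribosomal RNA and sequenced from stranded libraries. The authors trimmed reads with cutadapt 1.12, aligned them to GRCm38 with TopHat 2.1.0 and deposited FPKM per gene (Cufflinks and Cuffdiff 2.2.1). Their methods mention quantile normalization, which the deposited FPKM columns do not show, and values were used as deposited. Groups and replicate numbers came from sample titles, and columns were matched through run numbers in the sample descriptions. Because FPKM are not counts, no count model was used. A filter kept genes that averaged 0.5 FPKM or more, which were fitted with limma 3.58.1 (R 4.3.3) with a mean-variance trend on log2(FPKM + 1), with Benjamini-Hochberg adjustment. The fit was tested on data with known differences before use. Exact permutation tests ran in Python 3.11.15.

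The members, gene lists and tests were chosen with earlier results of these data known. Text names all 10 members, the 5 other pathway genes with the smallest p, the 3 genes most like the member with the smallest p, *Cdh1* and *Epcam*, and abundant markers. *Cdc42*, *Dlg1* and *Pard6g* were added after their values were seen. Replicates are separate buds. Summed markers of red blood cells, leukocytes and nerve overlapped between genotypes. Gene positions follow the table as deposited, and transcript lengths come from GENCODE M21. Alternatives were another pseudocount, other filters, 3 scalings, array weights, no trend, replicate blocks, and leaving out single libraries.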

Additional observations from a re-analysis of the deposited data

Results flagged for a closer look

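In 1 of 13 sets of 5 WT values examined (10 genes and 3 paralog ratios), a library lay far from the others, by a rule that chance meets in about 1 of 20 groups. *Pard6b* was at 10.7 FPKM in WT replicate 2, against 9.82 to 10.02 FPKM in the other WT buds, a gap of 0.785 of the whole range.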

How the results depend on the processing

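Apart from the scaling to *Cdh1* and *Epcam*, 16 alternatives kept the direction of the log2 difference in 159 of 160 values of the 10 genes. The exception was *Pard6a*, which ran from -0.20 to 0.34 as libraries were left out. No gene was called under them except *Llgl2* with array weights, which made the count 1. The count of genes at an unadjusted p under 0.05 was 3 to 6 with a library left out, 6 without Lats1/2-null replicate 2, where the count over all 13777 genes also moved, to 2035 from 1553, and to 812 without Lats1/2-null replicate 3. The scaling to *Cdh1* and *Epcam*, which moved the median of all genes, called 7 genes (7 also at the unadjusted p, and 25 of the other pathway genes). It turned *Pard3* to -0.98, *Pard6a* to -0.98, *Pard6b* to -0.86, *Prkcz* to -0.67, *Llgl2* to -0.0901 and *Scrib* to -0.999. With libraries left out, the balance of *Prkci* and *Prkcz* ran from -0.87 to -0.42, that of *Pard6b* and *Pard6a* from -0.43 to 0.63, and that of *Llgl2* and *Llgl1* from 0.77 to 1.55. Same-numbered libraries did not deviate together (r = 0.09, -0.10 and 0.07 for numbers 1 to 3). With so few libraries these correlations show no pairing by number but cannot exclude one, such as a shared litter. With the replicate block, 2 of the 10 genes had an unadjusted p under 0.05, and the balances were -0.55 and 1.13, each with an exact sign-flip p of 0.25, the smallest 3 pairs allow. Over all tested genes, 2 were called, against 18 with a pseudocount of 0.1 FPKM, 174 with array weights, 1 with the block or without the trend, and 0 to 19 with a library left out, 19 without Lats1/2-null replicate 3. Depth limits *Crb3*, *Pard6a* and *Prkcz* most.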
